A study of Mus musculus with 27 samples.

Results

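IL-4 polarization of WT macrophages was examined in control medium, as the difference between M2 and unpolarized (Mφ) bone marrow-derived macrophages. The libraries were chosen by their titles. They are 3 libraries of WT M2 cells (replicates 2 to 4) and 3 libraries of WT Mφ (replicates 1 to 3), all in DMEM and all of batch 1, or 6 of the 27 libraries of the series. Bone marrow came from age-matched female C57BL/6 mice of 3 to 4 months, and macrophages were grown in a medium that holds conditioned medium of the L929 fibroblast line as a source of M-CSF. M2 cells were Mφ that received IL-4 at 10 ng/ml for 24 h in complete RPMI. Mφ and M2 were then kept for 48 h in DMEM, the control medium, before RNA was taken. The sources used here do not state whether Mφ spent the same 24 h in complete RPMI, nor whether IL-4 stayed in the medium, so IL-4 and the added time in RPMI cannot be told apart. Gene expression was read from 3′ ends of polyadenylated RNA (QuantSeq), and the values are read counts per gene. The same response was read in TRAP1 KO macrophages in control medium (3 M2 and 3 Mφ libraries), which lack the mitochondrial chaperone TRAP1, and in WT macrophages kept in MPNST-CM (3 and 3), which is medium conditioned by cells of a mouse malignant peripheral nerve sheath tumor. The labels do not say whether replicates of a group came from separate mice or cultures, so the p-values measure the spread between libraries, which may be technical.

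IL-4 binds a receptor made of IL-4Rα and the common γ chain on macrophages. JAK kinases bound to the receptor phosphorylate the transcription factor STAT6, and the IRS2 adaptor carries a parallel signal towards PI3K. The resulting state, called alternative or M2 activation, is known in mice for arginase 1, for the secreted proteins RELMα (Retnla) and Ym1 (Chil3), for C-type lectins and for chemokines that attract T helper 2 cells and eosinophils. Macrophages in this state also take up lipids, can fuse into multinucleated giant cells, and were long described as opposed to the state induced by interferon-γ and bacterial products.

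The 6 libraries held 7037684 to 8045524 counts in Mφ and 7392454 to 8510959 in M2, so that 3 counts, taken as the limit of detection in a library, correspond to 0.342 to 0.451 CPM (counts scaled to the library total times its TMM factor). Such limits cover counting error only. Libraries of a group correlated at 0.979 to 0.988 (Pearson's r of log2 CPM across genes) and libraries of different groups at 0.926 to 0.940. WT Mφ replicate 1 stood apart from replicates 2 and 3, since a chi-square test of the counts over genes gave 16 and 16.5 per degree of freedom for it and 2.11 between those 2, and calls that change without it are given beside the gene. The 10 most abundant genes took 10.98% to 11.23% of the counts in Mφ and 14.1% to 14.3% in M2, and mitochondrially encoded genes 2.84% to 3.42% and 4.68% to 5.18%. Batch 2 held 1 more library of WT Mφ in control medium (replicate 4) and none of WT M2, so no value could be computed within that batch, and its values stand beside some results. Macrophage markers were abundant in both groups. Their 12 transcripts summed to 10900 to 11870 CPM in Mφ and 12100 to 12430 CPM in M2, and 5 were higher and 4 lower in M2, or 2 and 7 with total counts as the scaling and 3 and 4 with all 27 libraries. Among them was Csf1r, the receptor of M-CSF, at 2209, 2259.6 and 2266 CPM in the Mφ libraries and 2538, 2293 and 2220.3 CPM in the M2 libraries (log2 fold change 0.07 ± 0.08 (SE), adjusted p = 0.579). It was called lower with total counts (log2 fold change -0.21, adjusted p = 0.0495). An SE here and below is the absolute log2 fold change over the square root of the F statistic of its edgeR test. Where a group held few counts, such an SE can be smaller than counting error alone. Stromal and endothelial markers summed to 17.6 to 23.7 CPM in Mφ and 7.50 to 9.57 CPM in M2. Lymphoid and erythroid markers stayed low, since T cell and NK cell markers summed to at most 3.38 CPM, B cell markers to at most 4.21 CPM and erythroid markers to at most 1.10 CPM in a library.

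Of 13614 genes tested, 5065 (37.2%) differed between M2 and Mφ at an adjusted p under 0.05 (edgeR's quasi-likelihood test with Benjamini-Hochberg adjustment). Of all genes tested, 19.1% (2595) were higher and 18.1% (2470) lower in M2, and these shares are the background for each count below. Most differences were small, since 3131 of the called genes changed by less than 1 on the log2 scale. The order of rises and falls depended on the cut. By at least 3 on the log2 scale 166 called genes rose and 81 fell, by at least 2 319 rose and 279 fell, and by at least 1 882 rose and 1052 fell. The groups did not overlap in 7043 genes (51.7%). The median log2 fold change over all genes tested was -0.03. The split of the smaller changes depended on the scaling. With total counts in place of TMM factors the median over all genes moved by -0.27 on the log2 scale, and 23.3% of the called genes were higher in M2 instead of 51.2%. With the batch 2 Mφ library added to batch 1, 5264 genes were called. A fit of all 27 libraries also adds TRAP1 KO M2 libraries of batch 2, 1 in control medium and 1 in MPNST-CM. It holds no batch term. The added TRAP1 KO library in control medium held 0.987% of its counts in mitochondrially encoded genes, against 5.15% to 5.99% in its batch 1 group. With all 27 libraries in the fit 3692 genes were called. Of the called genes described below, 34 were not called in that fit (adjusted p = 0.0518 to 0.554), namely C1qb, Ccl5, Ccr2, Cd163, Cd86, Cpt1a, Ctla2a, Cxcr4, Cyp51, CYTB, D17H6S56E-5, Ero1a, Fcgr4, Gja1, Gm30605, Hspa9, Ier3, Il1b, Il4ra, Isg15, Lpl, Mmp8, Msmo1, Mx1, ND4, Odc1, Pf4, Pparg, Stat3, Tnf, Trap1, Usp18, Vegfa and Xaf1, besides S100a8 and S100a9, which changed direction. The batch 2 Mφ library lay on the Mφ side of all 3 M2 libraries in 4587 (92.8%) of the 4944 called genes whose groups did not overlap.

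**Figure D1:**
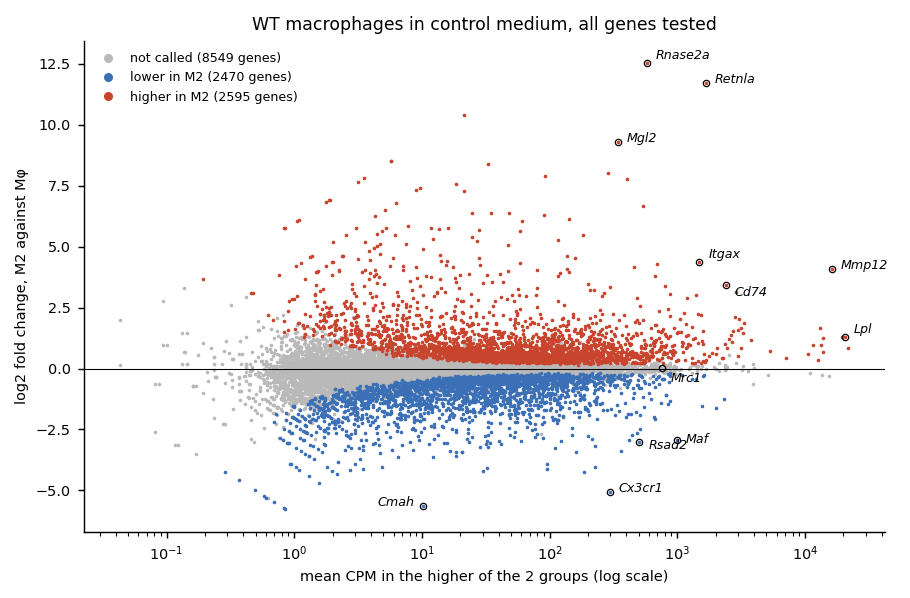
Fitted log2 fold change of M2 against Mφ (vertical axis) by the mean CPM in the higher group (horizontal log axis) for the 13614 genes tested in WT macrophages in control medium, 1 point a gene, colored by call. The largest rises reach a fitted log2 fold change of 12.54 (Rnase2a, whose value depends on the prior count because Mφ held 2 counts) and the labelled falls reach -5.65 (Cmah), while Mrc1 lies at 0.04.

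The receptor chains and kinases of IL-4 signalling differed by less than 1 on the log2 scale, and its feedback inhibitors moved most. Of 11 genes of IL-4 signalling, 5 were higher, 2 lower and 4 not called, with a median log2 fold change of 0.22. Total counts gave 4 lower. Il4ra, the ligand-binding chain, was at 90.5, 86.4 and 90.9 CPM in the Mφ libraries and 71.8, 63 and 61.1 CPM in the M2 libraries, slightly lower in M2 without overlap (log2 fold change -0.45 ± 0.11 (SE), adjusted p = 0.0023), while the batch 2 Mφ library held 71.1 CPM, within the M2 range. Il2rg, the common γ chain, was at 130.3, 134 and 149.6 CPM in the Mφ libraries and 252, 262 and 238 CPM in the M2 libraries and rose (log2 fold change 0.86 ± 0.10 (SE), adjusted p = 6.09e-08). Stat6 was not called, at 51.6, 39.9 and 46 CPM in the Mφ libraries and 44.9, 49.7 and 42.4 CPM in the M2 libraries (log2 fold change -0.0049 ± 0.14 (SE), adjusted p = 0.984), and its groups overlapped. Jak1 and Tyk2 were not called either (log2 fold change 0.06 ± 0.07 and -0.07 ± 0.08). Both were called lower with total counts (-0.21, adjusted p = 0.0162, and -0.34, adjusted p = 0.00144), so that Jak1 changed direction. Jak3 fell by 0.96 on the log2 scale at levels under 4 CPM. Irs2 rose (13.4, 18.5 and 13.6 CPM in M2 against 5.4, 6.51 and 7.4 CPM in Mφ, log2 fold change 1.24 ± 0.17 (SE), adjusted p = 1.93e-06). The 3 inhibitors of cytokine signalling on the list all rose from a few CPM in every Mφ library to over 20 CPM in every M2 library. Cish was at 1.35, 1.04 and 2.05 CPM in the Mφ libraries and 26.3, 32.1 and 27.2 CPM in the M2 libraries (log2 fold change 4.24 ± 0.28 (SE), adjusted p = 2.5e-12). Socs2 was at 0.736, 0.912 and 0.456 CPM in the Mφ libraries and 25.2, 30.2 and 25.3 CPM in the M2 libraries (log2 fold change 5.25 ± 0.33 (SE), adjusted p = 5.9e-13). Socs1 was at 2.7, 5.21 and 3.87 CPM in the Mφ libraries and 24.2, 26 and 32 CPM in the M2 libraries (log2 fold change 2.80 ± 0.27 (SE), adjusted p = 3.41e-09).

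Effectors of alternative activation gave the largest changes of any list, with 18 of 23 tested genes higher, 3 lower and 2 not called, and a median log2 fold change of 5.66. Retnla, which encodes the secreted protein RELMα, had 0.491, 0.391 and 0.57 CPM (4, 3 and 5 counts) in the Mφ libraries and 1693, 1644 and 1680.1 CPM in the M2 libraries, or log2 fold change 11.70 ± 0.26 (SE), adjusted p = 6.62e-20. Each M2 library was therefore above 1600 CPM and each Mφ library below 1 CPM. Arg1, which converts arginine to ornithine and urea, had 0.245, 0.261 and 0.57 CPM in the Mφ libraries and 86.4, 100.3 and 89.4 CPM in the M2 libraries (log2 fold change 7.92 ± 0.36 (SE), adjusted p = 2.72e-13). Chil3, a chitinase-like protein also called Ym1, had 0.981, 0.782 and 1.48 CPM in the Mφ libraries and 267, 293 and 299.7 CPM in the M2 libraries (log2 fold change 8.01 ± 0.24 (SE), adjusted p = 3.81e-18), and the batch 2 Mφ library held 5.81 CPM. Chil3 is also 1 of 6 monocyte markers, which summed to 376.3 to 386.8 CPM in Mφ and 544.1 to 585.8 CPM in M2 with Chil3 higher, Ccr2 lower and 4 genes not called. The mean of Chil3 alone rose by 285 CPM, more than the sum did, so the other markers together fell. A share of monocytes was not tested. Its near-identical copy Chil4 had 0 counts in the 3 Mφ libraries and 11, 9 and 3 in the M2 libraries, and how reads were divided between such copies was not tested. Mgl2, a macrophage galactose-type lectin, was at 354, 331 and 342 CPM in M2 against 0.613, 0.261 and 0.684 CPM in Mφ (log2 fold change 9.30 ± 0.23 (SE), adjusted p = 8.65e-21).

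Further effectors rose from a low base. Flt1, the VEGF receptor 1, had 5.4, 6.12 and 4.22 CPM in the Mφ libraries and 535, 561 and 512 CPM in the M2 libraries (log2 fold change 6.68 ± 0.15 (SE), adjusted p = 5.66e-22). Slc7a2, the cationic amino acid transporter that takes up arginine, had 0.981, 1.04 and 1.37 CPM in the Mφ libraries and 99.2, 88.7 and 82.7 CPM in the M2 libraries (log2 fold change 6.29 ± 0.25 (SE), adjusted p = 7.14e-17). Tmem26, a membrane protein used as an M2 surface marker, reached 142, 139.9 and 147 CPM from 1.84, 0.782 and 3.3 CPM (log2 fold change 6.13 ± 0.23 (SE), adjusted p = 5.25e-17). Fn1, which encodes fibronectin, reached 179.8, 188 and 179 CPM from 2.09, 5.21 and 4.9 CPM (log2 fold change 5.48 ± 0.24 (SE), adjusted p = 6.02e-14). All of these groups were far apart, and the spread within M2 was small, as in Flt1 with a mean of 536 ± 24.5 CPM (SD, n = 3). Pdcd1lg2, the PD-L2 ligand of PD-1, had 0.491, 0 and 0.228 CPM in the Mφ libraries and 13.5, 13.2 and 13.9 CPM in the M2 libraries, with no count in 1 Mφ library. Il31ra, an IL-31 receptor chain, had 2 counts over the 3 Mφ libraries and 393 over the M2 libraries, a ratio of 225 (95% exact counting interval 61.8 to 1860).

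Other classical M2 genes moved little or fell. Mrc1, which encodes the mannose receptor CD206, was not called, at 714, 748 and 737 CPM in the Mφ libraries and 757, 752 and 750.4 CPM in the M2 libraries (log2 fold change 0.04 ± 0.07 (SE), adjusted p = 0.708). With total counts Mrc1 changed direction and was called lower (log2 fold change -0.23, adjusted p = 0.0104). Clec10a, the other galactose-type lectin, rose modestly (80.4, 80.4 and 69.4 CPM in M2 against 39.1, 51.1 and 45.8 CPM in Mφ, log2 fold change 0.76 ± 0.13 (SE), adjusted p = 2.4e-05). Cd163, the hemoglobin scavenger receptor, was low and lower in M2 (2.25, 4.92 and 3.93 CPM in M2 against 6.99, 6.51 and 5.47 CPM in Mφ, log2 fold change -0.75 ± 0.24 (SE), adjusted p = 0.0135), a call that was lost without Mφ replicate 1 (adjusted p = 0.0555) or M2 replicate 2 (0.110) and with the batch 2 Mφ library added (0.119). Folr2, a folate receptor, also fell (19.4, 15.9 and 16.1 CPM in M2 against 31.8, 35.8 and 37.9 CPM in Mφ, log2 fold change -1.04 ± 0.11 (SE), adjusted p = 1.28e-08), as did Ch25h, the cholesterol 25-hydroxylase (log2 fold change -1.79 ± 0.51, adjusted p = 0.00824, and 0.0533 without M2 replicate 3). Alox15, a lipoxygenase that IL-4 induces in human monocytes, was under 4 CPM in every library and not called (log2 fold change -0.65 ± 0.52 (SE), adjusted p = 0.355), a value that was near 0 without Mφ replicate 1. Alox15 overlapped between the groups, Cd163 and Folr2 did not, and the Mrc1 groups lay side by side.

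The 15 genes with the largest rise (mean of at least 10 CPM in the higher group, called, no overlap) held 7 of the effectors above and 8 further genes. Rnase2a, a ribonuclease of the eosinophil-associated family, had 2 counts over the 3 Mφ libraries and 12418 over the 3 M2 libraries, at 549.7, 588 and 593 CPM, which is a ratio of 7110 (95% exact counting interval 1970 to 58700). Ear2, of the same family, had 2 and 708 counts (ratio 405, interval 112 to 3350). These ribonucleases are similar in sequence, and the division of reads between family members was not tested. Cldn11, a tight junction claudin, had no counts in any Mφ library and 22.8, 22.5 and 18.4 CPM in M2, at least 174-fold higher against a floor of 3 counts over the Mφ group. Dclk1, a microtubule-associated kinase, had 3 and 459 counts (ratio 175, interval 59.5 to 852). Edn1, the precursor of the vasoconstrictor endothelin 1, rose from 0.613, 0.651 and 0.456 CPM to 49.6, 42.5 and 52.8 CPM (log2 fold change 6.37 ± 0.33 (SE), adjusted p = 1.72e-14). Scn3a, a sodium channel subunit, rose to a mean of 34.9 ± 2.12 CPM (SD, n = 3). Ocstamp and Cdh1, the remaining genes, belong to the fusion genes described below.

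**Figure D2:**
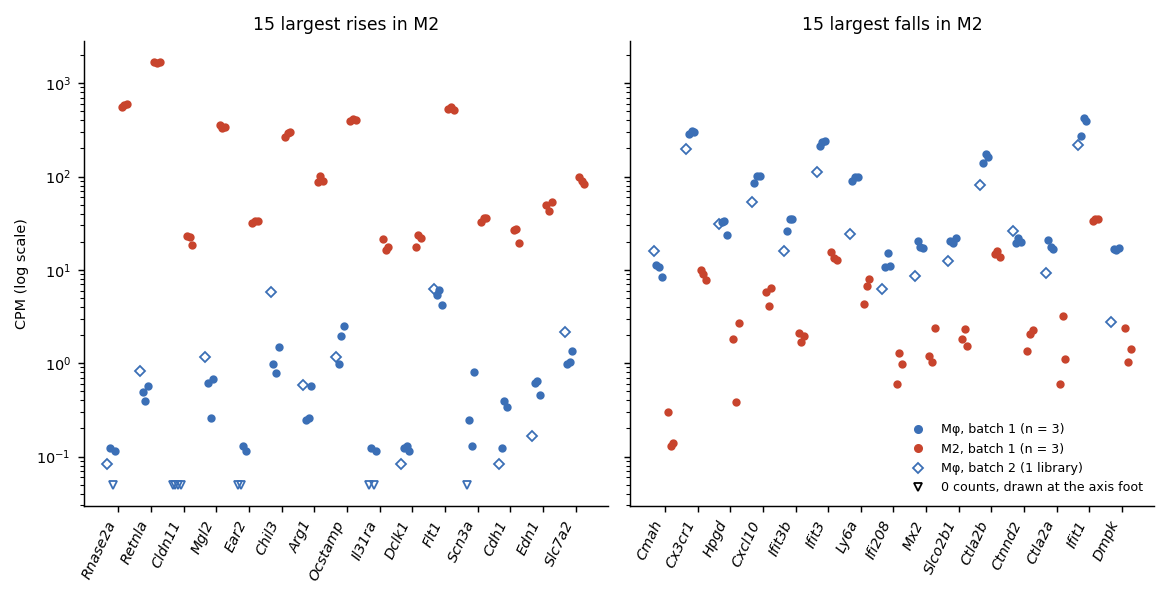
CPM (vertical log axis) of the 15 genes with the largest rise (left) and the 15 with the largest fall (right) in each WT library in control medium. Filled blue points are Mφ and red points M2 of batch 1 (n = 3 each), open diamonds are the Mφ library of batch 2, and open triangles at the foot are libraries with 0 counts. In all 30 genes the M2 and Mφ points of batch 1 are apart, and Cldn11 has 0 counts in every Mφ library.

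Markers of eosinophils, mast cells and basophils were read beside the ribonucleases, since those ribonucleases are also genes of eosinophils. Among 5 eosinophil markers, Siglecf (58, 57.1 and 54.6 CPM in M2 against 4.54, 5.6 and 7.18 CPM in Mφ) and Ccr3 (42.2, 40.7 and 41.7 CPM in M2 against 17.5, 16.3 and 17.3 CPM in Mφ) rose, and their list summed to 21.98 to 24.45 CPM in Mφ and 96.3 to 100.2 CPM in M2. The eosinophil granule genes Epx and Prg2 and the receptor gene Il5ra were at or near 0, with 1 count over the 6 libraries for each. Among 8 mast cell and basophil markers, 4 of 5 tested were higher, and the list summed to 0.734 to 3.25 CPM in Mφ and 8.55 to 13.5 CPM in M2. Prss34, a basophil protease, had 3 counts over the Mφ libraries and 84 over the M2 libraries, and Mcpt8 had 1 and 44. Mcpt4 had 0 counts in all 6 libraries. In bulk samples more cells of a type and more RNA per cell cannot be told apart, and the part of such cells in these results was not tested.

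STAT6 and other STAT factors bind inverted repeats of TTC and GAA, and promoter windows of the genes with the largest changes were read for 2 spacings. A window ran from 250 bases before to 50 bases after the start of a RefSeq transcript (GRCm38.p6). The spacing with 4 bases in the middle, TTCNNNNGAA, is the preferred STAT6 form, and TTCNNNGAA is shared by other STAT factors. Each repeat reads the same on both strands. A window was available for 10 of the 15 genes with the largest rise, of which 3 held TTCNNNNGAA and 2 held TTCNNNGAA. Of the 13 of 15 fallen genes with a window, 1 held TTCNNNNGAA and 2 TTCNNNGAA. Among all 9906 tested genes with a window, 6.76% held TTCNNNNGAA and 8.32% TTCNNNGAA. For the genes called higher the shares were 7.43% and 7.78%, and for those called lower 7.39% and 8.38%, so over all called genes the shares in either direction were close to that background. The 3 windows of risen genes that held the preferred STAT6 form are printed 5′ to 3′ on the strand of the gene, with the repeat in capitals; they are shown since these genes are among the largest rises and carry the letters that STAT6 prefers. They are at chr16:48842359-48842658 on the plus strand for Retnla, at chr13:42301226-42301525 on the plus strand for Edn1 and at chr3:55242114-55242413 on the plus strand for 1 of 2 Dclk1 starts. A match describes these letters and not a bound site.
Retnla: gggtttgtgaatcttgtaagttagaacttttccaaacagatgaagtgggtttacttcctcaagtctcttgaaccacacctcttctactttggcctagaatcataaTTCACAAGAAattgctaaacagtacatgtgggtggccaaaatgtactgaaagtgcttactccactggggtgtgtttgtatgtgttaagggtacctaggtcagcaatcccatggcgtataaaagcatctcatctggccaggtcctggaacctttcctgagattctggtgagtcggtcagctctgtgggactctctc
Edn1: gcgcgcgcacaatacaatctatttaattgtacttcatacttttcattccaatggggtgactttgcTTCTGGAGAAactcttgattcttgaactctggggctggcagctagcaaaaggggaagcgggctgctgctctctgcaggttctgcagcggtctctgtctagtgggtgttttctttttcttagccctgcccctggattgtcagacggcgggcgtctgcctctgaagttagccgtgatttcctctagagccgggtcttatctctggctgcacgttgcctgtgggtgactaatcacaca
Dclk1: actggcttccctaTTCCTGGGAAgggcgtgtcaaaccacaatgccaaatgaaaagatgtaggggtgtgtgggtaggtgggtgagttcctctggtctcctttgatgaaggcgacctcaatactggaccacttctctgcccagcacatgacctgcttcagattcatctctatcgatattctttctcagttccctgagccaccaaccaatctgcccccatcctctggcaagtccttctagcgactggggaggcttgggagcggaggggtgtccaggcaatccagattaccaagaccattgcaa
The repeat began 145 bases before the start in Retnla, 185 in Edn1 and 237 in Dclk1.

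Transcription factors linked to polarization moved in both directions, with 11 of 18 higher, 5 lower and 2 not called, and a median log2 fold change of 0.71. Factors known from IL-4-treated macrophages rose. Egr2 was at 24.7, 31.7 and 35.9 CPM in the Mφ libraries and 263, 267 and 265 CPM in the M2 libraries (log2 fold change 3.11 ± 0.13 (SE), adjusted p = 1.32e-16). Irf4, an interferon regulatory factor tied to M2 activation, was at 49.6, 50.8 and 50.7 CPM in M2 against 5.64, 4.3 and 8.32 CPM in Mφ (log2 fold change 3.04 ± 0.19 (SE), adjusted p = 8.07e-13). Ppargc1b, a coactivator of mitochondrial biogenesis, rose by 2.85 ± 0.18 (SE) on the log2 scale, Batf3 by 3.53 ± 0.25, Bhlhe40 by 3.47 ± 0.16 and Klf4 by 2.02 ± 0.12, and none of these groups overlapped. Pparg, the fatty acid-sensing nuclear receptor, was at 23.7, 31.9 and 32.4 CPM in the Mφ libraries and 80.8, 66.8 and 87.6 CPM in the M2 libraries (log2 fold change 1.42 ± 0.41 (SE), adjusted p = 0.0104). Its call was lost with the replicate block, which adds the replicate number to the fit (log2 fold change 1.25, adjusted p = 0.0524) and with all 27 libraries (1.25, adjusted p = 0.195). Myc reached 22.2, 24.2 and 27.8 CPM from 6.01, 7.69 and 6.38 CPM, and the batch 2 Mφ library held 14 CPM. Maf fell most, from 933, 1014 and 1019 CPM to 129, 129.5 and 132 CPM (log2 fold change -2.93 ± 0.08 (SE), adjusted p = 3.44e-20). Irf8 fell by 0.52 on the log2 scale. Stat3 was lower by less than that (log2 fold change -0.28 ± 0.09). The Stat3 call was lost without Mφ replicate 1 (adjusted p = 0.205) or M2 replicate 4 (0.149), with only the 6 libraries compared (0.0532) and with the replicate block (0.188). Irf5, tied to inflammatory activation, rose (316, 349 and 354 CPM in M2 against 192, 196 and 182 CPM in Mφ, log2 fold change 0.84 ± 0.08 (SE), adjusted p = 2.87e-09). Cebpb and Kdm6b were not called. Kdm6b, a histone demethylase, was called higher without the filter on low counts (log2 fold change 0.59, adjusted p = 0.0485), with the batch 2 Mφ library added (0.69, adjusted p = 0.0261) and without Mφ replicate 3 (0.86, adjusted p = 0.0228).

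Arginine and polyamine genes were mostly higher, with 8 of 13 tested genes up, 1 down and 4 not called (median 0.77), and with all 27 libraries 5 up. Besides Arg1 and Slc7a2, Ass1, which rebuilds arginine from citrulline, rose from 16.7, 14.7 and 16.2 CPM to 46.7, 41.6 and 44.5 CPM (log2 fold change 1.48 ± 0.20 (SE), adjusted p = 8.55e-07). Srm, the spermidine synthase, rose (22.5, 22.1 and 22.7 CPM in M2 against 11, 9.51 and 12.6 CPM in Mφ, log2 fold change 1.02 ± 0.15 (SE), adjusted p = 3.36e-06), as did Odc1, the rate-limiting enzyme of polyamine synthesis, at levels under 7 CPM (log2 fold change 0.99 ± 0.28). Paox, which oxidizes polyamines, was the gene that fell (10.5, 8.94 and 6.88 CPM in M2 against 24.3, 17.6 and 16.9 CPM in Mφ, log2 fold change -1.16 ± 0.23 (SE), adjusted p = 0.000328). Nos2, which competes with arginase for arginine, was called higher but stayed at 1.65, 2.46 and 1.54 CPM in M2, with no count in 1 Mφ library (log2 fold change 2.47 ± 0.75 (SE), adjusted p = 0.0113), and the call was lost without Mφ replicate 3 (adjusted p = 0.0630) or M2 replicate 3 (0.0537). Arg2 had 1 count over the Mφ libraries and 3 over the M2 libraries and was not tested.

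The study followed 12 marker transcripts by RT-qPCR and glutamine synthetase as a protein in the same kind of cells. These 13 genes are therefore no independent choice. Of 12 tested here, 6 were higher, 4 lower and 2 not called. Only 2 were lower without M2 replicate 2 or with all 27 libraries. Mmp9, a gelatinase, rose from 5.4, 6.91 and 8.2 CPM to 163, 157 and 157 CPM (log2 fold change 4.53 ± 0.14 (SE), adjusted p = 1.15e-19), and Vegfa from 16.7, 15 and 18.7 CPM to 31.2, 36 and 39.5 CPM (log2 fold change 1.08 ± 0.12 (SE), adjusted p = 4.59e-08). Il1b rose as well (10.7, 11.5 and 10.8 CPM in M2 against 3.8, 5.21 and 5.7 CPM in Mφ, log2 fold change 1.16 ± 0.19 (SE), adjusted p = 1.42e-05). Fcgr1, which encodes the high-affinity IgG receptor CD64, fell from 198, 229 and 221 CPM to 28.7, 30.1 and 28.4 CPM (log2 fold change -2.89 ± 0.09 (SE), adjusted p = 3.17e-19). Glul, the glutamine synthetase, fell by 0.37 on the log2 scale. Tnf stood at a log2 fold change of -0.35 ± 0.14 (adjusted p = 0.0421). Its call was lost when any library but Mφ replicate 1 was left out (adjusted p = 0.0533 to 0.136), without the filter (0.0609), with the replicate block (0.0543) and by DESeq2 (0.0517). Hif1a was not called, with 47.5, 53.6 and 45.2 CPM in the Mφ libraries and 52, 52.6 and 50.1 CPM in the M2 libraries (log2 fold change 0.08 ± 0.09 (SE), adjusted p = 0.5).

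Genes of macrophage fusion and of osteoclasts, the multinucleated cells of bone that arise from the same lineage, mostly rose, with 9 of 11 tested genes higher and 2 lower (median 3.38). Ocstamp, a membrane protein needed for fusion, rose from 0.981, 1.95 and 2.51 CPM to 390.0, 411 and 401 CPM (log2 fold change 7.76 ± 0.24 (SE), adjusted p = 1.35e-17). Its relative Dcstamp had 24, 28 and 25.2 CPM in the Mφ libraries and 459, 442 and 468 CPM in the M2 libraries (log2 fold change 4.15 ± 0.10 (SE), adjusted p = 2.72e-21). Cdh1, which encodes E-cadherin and takes part in IL-4-driven fusion, had 27, 27.6 and 19.7 CPM in M2 against 0.123, 0.391 and 0.342 CPM in Mφ (log2 fold change 6.37 ± 0.32 (SE), adjusted p = 9.55e-15). All libraries of each group lay apart in these 3 genes. Atp6v0d2, a proton pump subunit, rose by 3.38 ± 0.08 (SE) on the log2 scale, the osteoclast enzymes Acp5 and Ctsk by 3.85 ± 0.30 and 2.98 ± 0.14, and Itgb3, the integrin β3 chain, by 2.79 ± 0.16. The upstream genes of osteoclast differentiation went the other way. Tnfrsf11a, the RANK receptor, was at 125, 138 and 131 CPM in M2 against 150.3, 174 and 175 CPM in Mφ (log2 fold change -0.34 ± 0.09 (SE), adjusted p = 0.00231), and the transcription factor Nfatc1 at 30.8, 29.8 and 28.4 CPM in M2 against 58.8, 44.7 and 50.1 CPM in Mφ (log2 fold change -0.79 ± 0.12 (SE), adjusted p = 8.41e-06). Calcr, the calcitonin receptor of mature osteoclasts, was too low to be tested.

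**Figure D3:**
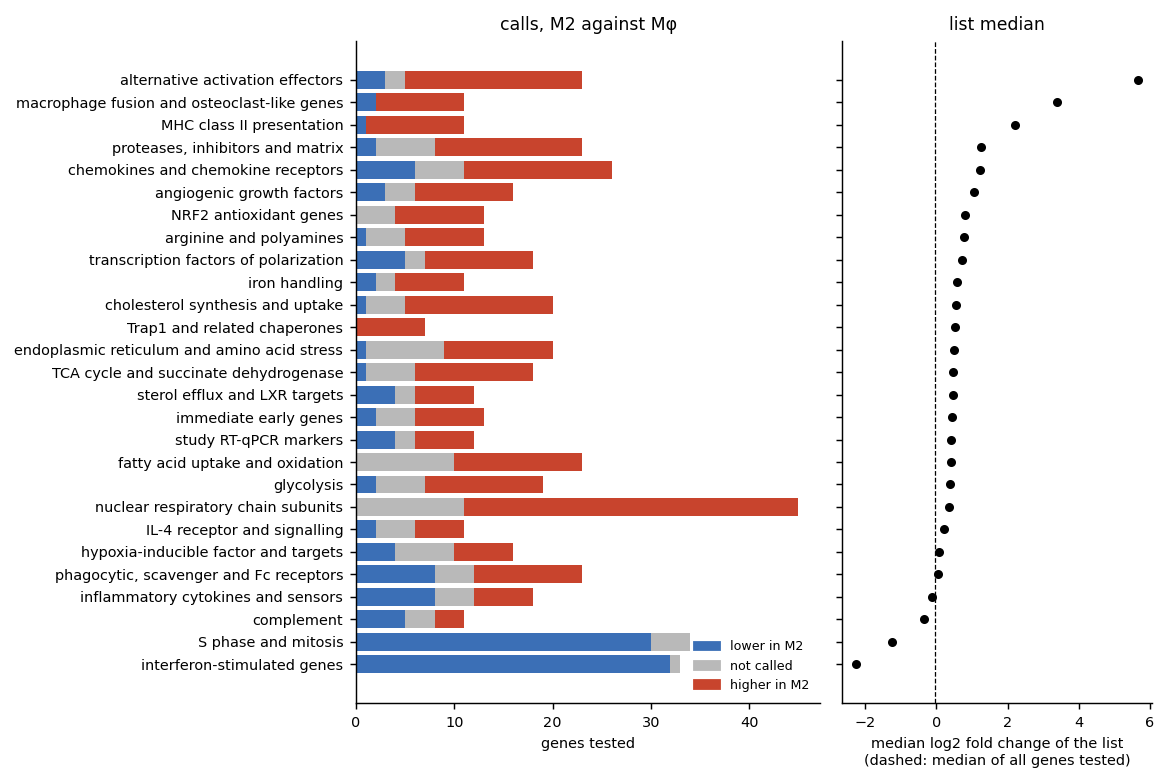
Left, the number of tested genes of each list (horizontal axis) that were lower (blue), not called (grey) or higher (red) in M2 against Mφ, WT macrophages in control medium. Right, the median log2 fold change of each list (points) beside the median of all genes tested (dashed line, -0.03). Effectors of alternative activation lie at the top with a median of 5.66 and interferon-stimulated genes at the foot with -2.25.

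Genes of MHC class II presentation, which loads peptides of engulfed proteins for CD4 T cells, rose in 10 of 11 tested members (median 2.21). Cd74, the invariant chain, rose from 200.2, 218 and 242 CPM to 2313, 2455 and 2394 CPM (log2 fold change 3.44 ± 0.11 (SE), adjusted p = 1.29e-18). H2-Aa and H2-Ab1, the chains of I-A, rose from 155, 160.3 and 158 CPM to 1239, 1109 and 1204 CPM (log2 fold change 2.91 ± 0.09 (SE), adjusted p = 1.01e-19) and from 95.1, 107 and 110.4 CPM to 928, 826 and 881 CPM (log2 fold change 3.08 ± 0.09 (SE), adjusted p = 4.46e-20). Every M2 library was above every Mφ library, by a wide margin. Ciita, the master regulator of the class II genes, was at 14.5, 11.9 and 9.57 CPM in the Mφ libraries and 53.2, 56.5 and 56.6 CPM in the M2 libraries (log2 fold change 2.21 ± 0.17 (SE), adjusted p = 3.13e-11). The peptide editors H2-DMa and H2-DMb1 rose by 1.88 ± 0.10 and 2.22 ± 0.09 (SE) on the log2 scale, and Ctss, the protease that trims the invariant chain, by 1.25 ± 0.06. H2-Ob, which restrains peptide editing, was the member that fell, at under 3 CPM in all libraries. The batch 2 Mφ library held less of these transcripts than batch 1 Mφ, for example 103 CPM of Cd74 and 61.5 CPM of H2-Aa, so it lay further from M2. Itgax, the CD11c integrin shared by dendritic cells and some macrophages, rose from 65.7, 78.7 and 69.8 CPM to 1494, 1476 and 1506 CPM (log2 fold change 4.38 ± 0.09 (SE), adjusted p = 1.39e-22). Among 7 dendritic cell markers, Ccr7 was higher (2, 3 and 2 counts in Mφ and 27, 38 and 29 in M2) and Siglech lower, Zbtb46 and Xcr1 were not called (Zbtb46 was higher with the replicate block, adjusted p = 0.0361), and the list summed to 8.87 to 13.9 CPM in Mφ and 16.5 to 17.1 CPM in M2. The B cell markers Cd79a and Pax5 had 0 counts in all 6 libraries. A share of dendritic cells was not tested.

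Phagocytic, scavenger and Fc receptors split, with 11 of 23 higher, 8 lower and 4 not called (median 0.05), with total counts 9 and 12, and with all 27 libraries 4 lower. Clec7a, the β-glucan receptor dectin-1, rose from 178, 164 and 168 CPM to 1380.2, 1419 and 1378 CPM (log2 fold change 3.03 ± 0.09 (SE), adjusted p = 4.65e-20). Itgam, the αM integrin of complement receptor 3, rose by 1.01 ± 0.13 (SE) on the log2 scale. Stab1, a scavenger receptor, fell from 32.1, 30.7 and 35.1 CPM to 6.76, 5.83 and 5.9 CPM (log2 fold change -2.41 ± 0.19 (SE), adjusted p = 7.14e-11). The efferocytosis receptor Mertk and its ligand Gas6 fell by 0.90 and 1.90 on the log2 scale, and Axl was not called, but lower with total counts (log2 fold change -0.45, adjusted p = 0.000163). Fc receptors changed in both directions, since the inhibitory Fcgr2b rose (124, 122 and 152 CPM in M2 against 51.3, 75.7 and 62.9 CPM in Mφ, log2 fold change 1.07 ± 0.15 (SE), adjusted p = 3.5e-06) and Fcgr4 fell (40.1, 38.3 and 35.5 CPM in M2 against 71.6, 72.1 and 80.2 CPM in Mφ, log2 fold change -0.97 ± 0.11 (SE), adjusted p = 2.53e-08), beside the fall of Fcgr1. Of 11 complement genes, 3 were higher, 5 lower and 3 not called, and with total counts 2 and 7 were. C3 rose from 50.4, 56.8 and 61.9 CPM to 199, 188 and 182 CPM (log2 fold change 1.75 ± 0.09 (SE), adjusted p = 1.12e-14), and the C5a receptor C5ar1 fell from 298, 376 and 367 CPM to 101, 103 and 109 CPM (log2 fold change -1.74 ± 0.10 (SE), adjusted p = 4.44e-14). The C1q chains C1qa, C1qb and C1qc fell by 0.96, 0.35 and 0.64 on the log2 scale, C1qb with an adjusted p of 0.0521 without M2 replicate 4. Itgb2, the β2 integrin chain that pairs with Itgam and Itgax, rose by 2.13 ± 0.09 (SE).

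Chemokine ligands were mostly higher and the receptors divided, with 15 of 26 genes up, 6 down and 5 not called (median 1.22), and with all 27 libraries 2 down. Of the chemokines known from M2 cells, Ccl24 rose from 0.736, 1.69 and 1.03 CPM to 62, 56.9 and 56.7 CPM (log2 fold change 5.66 ± 0.26 (SE), adjusted p = 1.51e-15) and Ccl22 from 0.736, 0.651 and 1.25 CPM to 65.4, 55.4 and 61.9 CPM (log2 fold change 6.07 ± 0.34 (SE), adjusted p = 4.88e-13). Ccl17 had no counts in any Mφ library and 124 counts over the M2 libraries, at least 47.3-fold higher against a floor of 3 counts over the group. Ccl8 rose to 16.4, 14.8 and 16.1 CPM from about 1 CPM or less (log2 fold change 4.40 ± 0.22 (SE), adjusted p = 7.37e-15). The monocyte attractants Ccl2 and Ccl7 had 689, 698 and 777 CPM in M2 against 113, 155 and 154 CPM in Mφ and 114, 151 and 149.7 CPM in M2 against 36.4, 43.9 and 38.2 CPM in Mφ (2.36 ± 0.28 and 1.81 ± 0.18, SE, on the log2 scale). In the batch 2 Mφ library Ccl2 stood at 273 CPM. Ccl9, Ccl6, Ccl3 and Ccl4 rose by 1.12 to 1.60 on the log2 scale. Cx3cr1, the fractalkine receptor of monocytes and resident macrophages, fell from 288, 305 and 297 CPM to 10.1, 8.94 and 7.72 CPM (log2 fold change -5.06 ± 0.14 (SE), adjusted p = 4.46e-20), the largest fall in this list. Cxcl10, an interferon-induced T cell attractant, fell from 86.1, 102 and 100.2 CPM to 5.86, 4.15 and 6.46 CPM (log2 fold change -4.14 ± 0.17 (SE), adjusted p = 1.87e-16). Pf4 fell from 803, 902 and 907 CPM to 356, 337 and 358 CPM. The receptor Ccr1 rose by 1.33 ± 0.27 (SE) on the log2 scale, whereas Ccr2 and Cxcr4 fell by 0.43 and 0.58.

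Inflammatory cytokines and sensors showed no common direction, with 6 of 18 tested genes higher, 8 lower and 4 not called (median -0.12), with total counts 3 and 9, and with all 27 libraries 5 lower. Il18 fell from 22.1, 25 and 27 CPM to 4.81, 6.61 and 5.48 CPM (log2 fold change -2.12 ± 0.18 (SE), adjusted p = 4.62e-10), and the LPS co-receptor Cd14 from 478, 579 and 589.9 CPM to 176, 181 and 187 CPM (log2 fold change -1.60 ± 0.16 (SE), adjusted p = 3.83e-08). Nlrp3, Tlr2, Cd86 and Il10 fell by 1.32, 1.38, 1.08 and 1.87 on the log2 scale. Il1rn, the IL-1 receptor antagonist, rose from 35.3, 37.7 and 43.3 CPM to 54.8, 56.6 and 53.6 CPM (log2 fold change 0.50 ± 0.11 (SE), adjusted p = 0.000401, but not called with total counts), and Ptgs2, the inducible cyclooxygenase, from 0.981, 1.82 and 1.37 CPM to 7.81, 4.92 and 6.46 CPM (log2 fold change 2.19 ± 0.35 (SE), adjusted p = 1.07e-05). Il12b had 1 and 3 counts over the groups and Il6 and Il1a were too low to be tested.

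Interferon-stimulated genes fell almost as a whole, with 32 of 33 genes lower in M2, none higher and 1 not called, and a median log2 fold change of -2.25. The groups did not overlap in any of the 32, nor in 4944 of all 5065 called genes. Rsad2, the antiviral enzyme viperin, fell from 496, 518 and 501 CPM to 65.4, 67.7 and 54.9 CPM (log2 fold change -3.01 ± 0.09 (SE), adjusted p = 1.01e-19). Ifit3 fell from 211, 232 and 243 CPM to 15.5, 13.3 and 12.9 CPM (log2 fold change -4.04 ± 0.12 (SE), adjusted p = 7.01e-20), its near-identical copy Ifit3b by 4.07 on the log2 scale, and the division of reads between them was not tested. Irf7, the factor that amplifies type I interferon, fell from 113, 128 and 125 CPM to 17.7, 13.2 and 16 CPM (log2 fold change -2.97 ± 0.12 (SE), adjusted p = 3.55e-17). Isg15, the ubiquitin-like modifier, fell from 7.24, 8.21 and 9.57 CPM to 1.35, 1.81 and 1.26 CPM, and Mx1, a dynamin-like antiviral GTPase, from 59.4, 46.5 and 56 CPM to 13.4, 16.1 and 16.7 CPM. Stat2 and Irf9, which act together in the response to type I interferon, fell from 121, 123 and 119 CPM to 32.8, 38 and 42.4 CPM and from 105, 102 and 102 CPM to 47.8, 52.1 and 46.3 CPM. Usp18 fell least, by 0.68 on the log2 scale. Gbp2, a guanylate-binding protein, was the gene not called, at 44.6, 38.8 and 37.9 CPM in the Mφ libraries and 48.8, 43.8 and 47.6 CPM in the M2 libraries (log2 fold change 0.21 ± 0.10 (SE), adjusted p = 0.0959). It was called higher without Mφ replicate 1 (log2 fold change 0.28, adjusted p = 0.0420). Their level in Mφ was lower in the other batch. The batch 2 Mφ library held 303 CPM of Rsad2, 112 CPM of Ifit3 and 59.6 CPM of Irf7, below each Mφ library of batch 1 and above each M2 library, and it lay on the Mφ side of all M2 libraries in 29 of the 32 genes. With that library added to the 24 of batch 1, 32 genes were called lower. The count was 20 with all 27 libraries, where Isg15, Mx1, Usp18 and Xaf1 were not called (adjusted p = 0.0518, 0.0625, 0.356 and 0.143). In Xaf1 it was below M2, at 6.3 CPM against 13.8, 15 and 15.7 CPM.

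Among the 15 genes with the largest falls, several more are induced by interferon, namely Mx2 (1.2, 1.04 and 2.39 CPM in M2 against 20.4, 17.6 and 17.3 CPM in Mφ), Ifi208 (0.601, 1.3 and 0.983 CPM in M2 against 10.8, 15.2 and 10.9 CPM in Mφ) and Ly6a (4.36, 6.74 and 8 CPM in M2 against 90.2, 99.4 and 99.3 CPM in Mφ), which encodes the surface protein Sca-1. Their groups lay apart, and the batch 2 Mφ library held 24.4 CPM of Ly6a. Cmah, which makes the sialic acid Neu5Gc, fell from 11.4, 10.7 and 8.43 CPM to 0.3, 0.13 and 0.14 CPM (log2 fold change -5.65 ± 0.54 (SE), adjusted p = 2.42e-09). Hpgd, which degrades prostaglandins, fell from 33, 33.2 and 23.6 CPM to 1.8, 0.389 and 2.67 CPM (log2 fold change -4.22 ± 0.33 (SE), adjusted p = 1.24e-10). Slco2b1, an organic anion transporter, and Ctnnd2, a catenin, fell by 3.43 and 3.41 on the log2 scale. Ctla2a and Ctla2b, related cathepsin inhibitors whose shared reads were not examined, fell by 3.41 and 3.42. Dmpk, a protein kinase, fell by 3.38, but the batch 2 Mφ library held 2.74 CPM, near the 2.4, 1.04 and 1.4 CPM of M2.

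**Figure D4:**
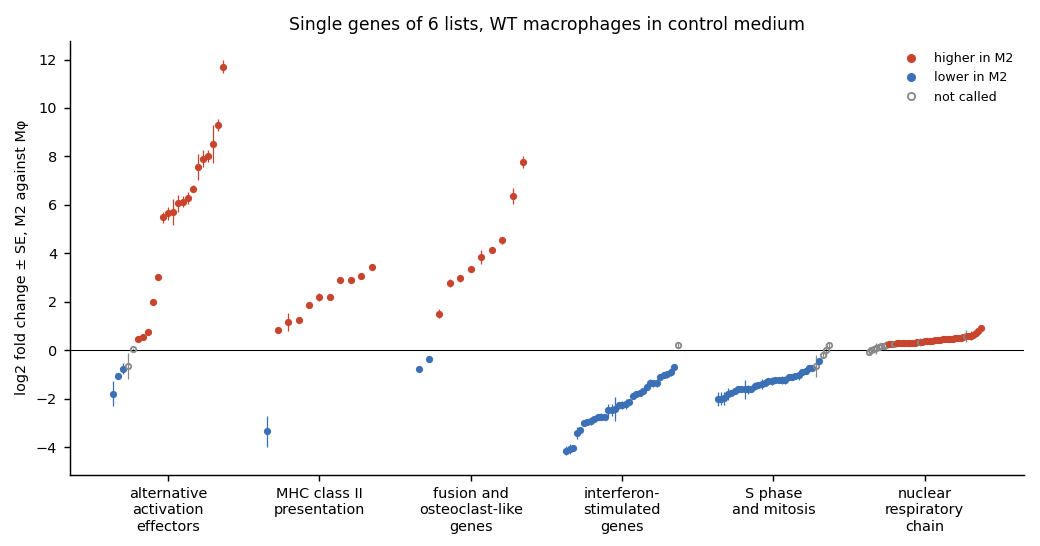
Log2 fold change of M2 against Mφ (vertical axis, with SE, derived from the F statistic, as bars) for each tested gene of 6 lists in WT macrophages in control medium, sorted within a list. Filled points were called, red for higher and blue for lower in M2. Of the 33 interferon-stimulated genes 32 are below 0 and called, of the 34 genes of S phase and mitosis 30, and the changes of respiratory chain subunits stay between -0.08 and 0.92.

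Genes of S phase and mitosis were lower in M2 in 30 of 34 cases, and none was higher (median -1.25). Ccnb2, a cyclin of mitosis, fell from 74.9, 86.8 and 81.3 CPM to 24.5, 25.1 and 29.8 CPM (log2 fold change -1.61 ± 0.10 (SE), adjusted p = 2.04e-13). Birc5, which encodes survivin, fell from 201, 205 and 192 CPM to 64.8, 55.7 and 57.1 CPM (log2 fold change -1.75 ± 0.11 (SE), adjusted p = 9.37e-13). Rrm1, a subunit of ribonucleotide reductase, fell from 183, 169.8 and 168 CPM to 77.8, 66.1 and 78.1 CPM (log2 fold change -1.23 ± 0.09 (SE), adjusted p = 5.02e-12). M2 libraries were below Mφ libraries without overlap in all 3. The replication helicase genes Mcm2 to Mcm7 fell by 0.71 to 1.08 on the log2 scale. In several cycle genes WT Mφ replicate 1 was well above the other Mφ libraries, as in Mki67 (207, 110.5 and 108 CPM in Mφ, 50.2, 43.5 and 46.5 CPM in M2, log2 fold change -1.60 ± 0.39 (SE), adjusted p = 0.00316) and Top2a (533, 325 and 332 CPM and 102, 99.6 and 98.7 CPM, log2 fold change -1.98 ± 0.28 (SE), adjusted p = 1.91e-05). The groups lay apart in these genes also without that library. Leaving out any 1 of the 6 libraries left 29 or 30 genes called lower. The batch 2 Mφ library was on the Mφ side of M2 in all 30 genes. Pcna, the clamp of DNA polymerase, was not called (207, 213 and 213 CPM in M2 against 150.4, 196 and 202 CPM in Mφ, log2 fold change 0.21 ± 0.14 (SE), adjusted p = 0.245). E2f1, Ccnd1 and the cycle inhibitor Cdkn1a were not called either, with log2 fold changes of -0.19 ± 0.12, -0.65 ± 0.44 and 0.0066 ± 0.24. E2f1 was called lower with total counts (-0.47, adjusted p = 0.00274).

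Proteases, inhibitors and matrix genes were higher in 15 of 23 tested members, lower in 2 and not called in 6 (median 1.25), with 4 lower under total counts. Mmp12, the macrophage elastase, showed the largest rise in CPM of all genes tested, from 800.2, 1045 and 998 CPM to 15773, 16213 and 16811 CPM (log2 fold change 4.10 ± 0.12 (SE), adjusted p = 8.86e-20). Timp1, an inhibitor of metalloproteinases, rose from 3.68, 4.43 and 2.85 CPM to 46.9, 41.8 and 40.2 CPM (log2 fold change 3.56 ± 0.17 (SE), adjusted p = 3.65e-15). Mmp13, Mmp19 and Mmp14 rose by 2.62 ± 0.11, 2.19 ± 0.25 and 1.40 ± 0.19 (SE) on the log2 scale. The coagulation factors F7 and F10 rose from 7.97, 7.56 and 8.66 CPM to 135, 139 and 135 CPM (log2 fold change 4.08 ± 0.13 (SE), adjusted p = 2.44e-19) and from 6.75, 9.38 and 8.89 CPM to 124, 123 and 105 CPM (log2 fold change 3.81 ± 0.14 (SE), adjusted p = 9.72e-18), while F13a1, the transglutaminase of clots and an M2 gene in human cells, fell from 76.4, 76.1 and 77.5 CPM to 15.9, 13.2 and 11.5 CPM (log2 fold change -2.50 ± 0.13 (SE), adjusted p = 1.34e-14). Plaur, the urokinase receptor, rose by 3.23 ± 0.28 (SE). Spp1, the secreted osteopontin, was not called, at 2052, 2697 and 2692 CPM in the Mφ libraries and 2749.7, 2846 and 3002 CPM in the M2 libraries (log2 fold change 0.21 ± 0.17 (SE), adjusted p = 0.368). Mmp8 rose by 0.42 ± 0.10 (SE), or 0.15 and not called with total counts, beside the neutrophil markers S100a8 and S100a9, which rose at under 13 CPM in these 6 libraries and stood at 22.4 CPM and 24.6 CPM in the batch 2 Mφ library. With that library in the fit their log2 fold changes turned to -0.05 and -0.60, and S100a8 lost its call without Mφ replicate 1 (adjusted p = 0.0814) or M2 replicate 2 (0.111). Camp and Retnlg had 0 to 2 counts in each library. Ly6g went the other way, with 11 counts over the Mφ libraries and 2 over the M2 libraries, and was not called. The neutrophil list, Mmp8 included, summed to 136.6 to 165 CPM in Mφ and 208.5 to 222 CPM in M2, and the part of neutrophils was not tested.

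Growth factors linked to vessels were higher in 10 of 16 tested genes and lower in 3 (median 1.07), with all 27 libraries in 1. Hbegf, a ligand of the EGF receptor, rose from 2.7, 2.48 and 3.19 CPM to 40.3, 39 and 43.7 CPM (log2 fold change 3.86 ± 0.15 (SE), adjusted p = 6.56e-17). Pdgfa rose from 51, 56 and 54.3 CPM to 257, 248 and 261 CPM (log2 fold change 2.25 ± 0.09 (SE), adjusted p = 1.1e-16), and Igf1 from 937, 1056 and 1026 CPM to 3285, 3209 and 3038 CPM (log2 fold change 1.66 ± 0.08 (SE), adjusted p = 1.03e-15). Angptl2, Nrp2 and Hgf rose by 1.72 ± 0.10, 1.12 ± 0.08 and 0.90 ± 0.11 (SE) on the log2 scale. Vegfb went against Vegfa and fell from 33.1, 35.4 and 33.9 CPM to 14.7, 17 and 15.3 CPM (log2 fold change -1.12 ± 0.11 (SE), adjusted p = 5.77e-09).

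Lipid genes showed a rise of uptake and of sterol synthesis. Of 23 genes of fatty acid uptake and oxidation, 13 were higher and none lower (median 0.42), but with total counts as the scaling the number was 5 and with all 27 libraries 6. Cd36, the fatty acid translocase, rose from 278, 353 and 348 CPM to 2743, 2856 and 3101 CPM (log2 fold change 3.15 ± 0.11 (SE), adjusted p = 7.75e-18), and Fabp4, a fatty acid carrier, from 18.9, 22 and 19.9 CPM to 89.4, 83.9 and 85.4 CPM (log2 fold change 2.09 ± 0.14 (SE), adjusted p = 5.07e-12). Lpl, the lipoprotein lipase, rose from 7743, 8657 and 8682 CPM to 20259, 21000 and 20672 CPM (log2 fold change 1.30 ± 0.08 (SE), adjusted p = 2.26e-13). These 3 uptake genes rose by more than 1 on the log2 scale, whereas Cpt1a, the entry enzyme of mitochondrial oxidation, rose by 0.36 ± 0.09 (SE), or 0.09 and not called with total counts, and Acadm, Acadl and Acadvl were not called. Acadm was called higher with only the 6 libraries compared (log2 fold change 0.33, adjusted p = 0.00677) and Acadl without Mφ replicate 3 (0.25, adjusted p = 0.0288). Of 20 genes of cholesterol synthesis and uptake, 15 were higher, 1 lower and 4 not called (median 0.56), with total counts 11 and 2, and with all 27 libraries 4 and none. Cyp51, a demethylase of sterol synthesis, rose from 78.5, 65.4 and 78.2 CPM to 149, 149.7 and 142 CPM (log2 fold change 0.99 ± 0.09 (SE), adjusted p = 2.56e-09), and Msmo1, which acts in the same pathway, from 136, 141 and 152 CPM to 213, 208 and 211 CPM (log2 fold change 0.56 ± 0.08 (SE), adjusted p = 1.46e-06). In this list the batch 2 Mφ library did not keep to the Mφ side. It was there in 6 of the 15 genes without overlap and not in Msmo1, where it held 223 CPM, above each M2 library, and 11 genes were called higher with that library added to batch 1. In the fit of all 27 libraries neither Cyp51 nor Msmo1 was called (adjusted p = 0.134 and 0.246). Of 12 genes of sterol efflux, 6 were higher and 4 lower, with total counts 4 and 5, and with all 27 libraries 3 higher. The exporter Abcg1 rose from 156, 190.4 and 209.7 CPM to 469.8, 472 and 515 CPM (log2 fold change 1.39 ± 0.23 (SE), adjusted p = 9.08e-05), Abca1 fell from 191, 176 and 186 CPM to 107, 108 and 104 CPM (log2 fold change -0.79 ± 0.13 (SE), adjusted p = 1.39e-05), and Apoe fell from 928, 803 and 816 CPM to 334, 296 and 288 CPM (log2 fold change -1.47 ± 0.11 (SE), adjusted p = 9.84e-12), though the batch 2 Mφ library held 380.5 CPM of Apoe.

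Genes of central energy metabolism were modestly higher, by amounts near the shift that the scaling makes. Of 19 glycolysis genes, 12 were higher and 2 lower (median 0.38), and with total counts 7 and 4. Slc2a1, the glucose transporter GLUT1, rose from 38.9, 49.1 and 45.7 CPM to 132, 132 and 139 CPM (log2 fold change 1.59 ± 0.11 (SE), adjusted p = 3.23e-12), Pfkp, a phosphofructokinase, from 62.6, 64.1 and 57.2 CPM to 172, 179 and 175 CPM (log2 fold change 1.52 ± 0.08 (SE), adjusted p = 8.28e-15), and Hk2 by 1.11 ± 0.10 (SE). Aldoc fell from 45.4, 53.7 and 46 CPM to 20.1, 18.3 and 17.5 CPM (log2 fold change -1.37 ± 0.12 (SE), adjusted p = 2.86e-10). Of 18 genes of the TCA cycle, 12 were higher and 1 lower (median 0.47), and with total counts 4 and 2. Sdha, Sdhb and Sdhc, subunits of succinate dehydrogenase, rose by 0.53 ± 0.08, 0.41 ± 0.09 and 0.48 ± 0.09 (SE) on the log2 scale, the latter 2 not called with total counts, and Sdhd was not called, with 27.7, 116 and 87.5 CPM in the Mφ libraries and 139, 94.2 and 151 CPM in the M2 libraries. Acod1, which makes itaconate, was not called (30.8, 35.4 and 23 CPM in M2 against 24.3, 25.9 and 24.9 CPM in Mφ, log2 fold change 0.25 ± 0.16 (SE), adjusted p = 0.224). Of 45 nuclear subunits of the respiratory chain, 34 were higher and none lower (median 0.37), but with total counts 8 were higher and 2 lower. Cyc1, the cytochrome c1 subunit, rose from 29.3, 37.3 and 35.7 CPM to 67.6, 57.6 and 68.1 CPM (log2 fold change 0.92 ± 0.11 (SE), adjusted p = 1.62e-07) and Atp5b, a subunit of ATP synthase, from 390.1, 461 and 441 CPM to 712, 748 and 794 CPM (log2 fold change 0.80 ± 0.09 (SE), adjusted p = 6.48e-08). The mitochondrially encoded ND1, ND4 and CYTB were among the 10 largest rises in CPM, by 0.97 ± 0.10, 0.85 ± 0.12 and 0.98 ± 0.09 (SE) on the log2 scale.

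Of 7 genes of Trap1 and related chaperones, all were called higher (median 0.52), with total counts or with all 27 libraries 4, and with 1 of the 6 libraries left out 5 or 6. Trap1 was at 13.4, 11.6 and 11.6 CPM in the Mφ libraries and 15.8, 16.3 and 18.8 CPM in the M2 libraries (log2 fold change 0.48 ± 0.18 (SE), adjusted p = 0.0434). Its call was lost when any 1 of the 6 libraries was left out (log2 fold change 0.39 to 0.55, adjusted p = 0.0521 to 0.165) and with total counts (0.20, adjusted p = 0.362), without the filter (adjusted p = 0.0938), with the replicate block (0.0810) and with the batch 2 Mφ library added (0.426). The batch 2 Mφ library held 20.9 CPM, above each of these M2 libraries. The mitochondrial chaperones Hspd1 and Hspa9 rose by 0.71 ± 0.11 and 0.52 ± 0.08 (SE). Of 16 genes of the hypoxia response, 6 were higher, 4 lower and 6 not called (median 0.08; 4 and 6 with total counts). Only 2 were lower by DESeq2, with its size factors in edgeR, without the filter, or without replicate 2 or 3 of either group, and 1 with all 27 libraries. Ndrg1 was among the falls, going from 74.2, 67.8 and 75.9 CPM to 21.6, 23.2 and 22 CPM (log2 fold change -1.70 ± 0.11 (SE), adjusted p = 5.95e-13) and Ero1a rose by 0.92 ± 0.11 (SE). Of 20 genes of endoplasmic reticulum and amino acid stress, 11 were higher and 1 lower (median 0.51; 3 lower with total counts, 2 without Mφ replicate 3). Atf3 rose from 138, 137 and 129.8 CPM to 487, 499.9 and 505 CPM (log2 fold change 1.88 ± 0.08 (SE), adjusted p = 1.32e-16), and the chaperones Hspa5 and Calr by 0.84 ± 0.07 and 1.07 ± 0.13 (SE). Of 13 NRF2 antioxidant genes, 9 were higher and none lower (median 0.80). Slc7a11, the cystine importer, rose from 4.54, 5.86 and 3.99 CPM to 81.1, 72.5 and 83.5 CPM (log2 fold change 4.05 ± 0.14 (SE), adjusted p = 3.49e-18) and Prdx1 by 1.18 ± 0.09 (SE). Of 11 genes of iron handling, 7 were higher and 2 lower (median 0.58). Only 1 was lower by DESeq2, with the replicate block, with all 27 libraries and without Mφ replicate 3 or any 1 of the M2 libraries. Tfrc, the transferrin receptor that imports iron, rose from 44.8, 50.6 and 49.8 CPM to 666, 678 and 676 CPM (log2 fold change 3.80 ± 0.09 (SE), adjusted p = 2.72e-21), and the iron exporter Slc40a1 fell from 96.7, 117 and 118 CPM to 25.5, 23.7 and 29.8 CPM (log2 fold change -2.07 ± 0.12 (SE), adjusted p = 8.45e-14). Of 13 immediate early genes, 7 were higher and 2 lower (median 0.42; 3 and none with all 27 libraries), with Fosl2 and Ier3 rising by 1.77 ± 0.10 and 1.63 ± 0.10 (SE) and Egr1 not called.

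By the difference in mean CPM, the 10 largest rises were those of Mmp12, Lpl, Gpnmb, ND4, Lgals3, Ctss, CYTB, ND1, Ctsb and Ctsd. Gpnmb, a lysosome-linked glycoprotein, rose from 6880.4, 8327 and 8285 CPM to 19685, 18662 and 19931 CPM (log2 fold change 1.31 ± 0.08 (SE), adjusted p = 9.59e-13). Lgals3, which encodes galectin-3, rose from 4178, 4131 and 4106 CPM to 12891, 12794 and 13393 CPM (log2 fold change 1.65 ± 0.07 (SE), adjusted p = 4.39e-16). Ctsb and Ctsd, lysosomal proteases, rose by 0.69 ± 0.09 and 0.58 ± 0.08 (SE) on the log2 scale. The 10 largest falls in CPM were those of Ifitm3, Serinc3, Dab2, Maf, Apoe, Pf4, Ms4a6c, Mndal, D17H6S56E-5 and Rsad2. Ifitm3, an interferon-induced membrane protein, fell from 2151, 1874 and 1979 CPM to 672, 651 and 620.4 CPM (log2 fold change -1.63 ± 0.11 (SE), adjusted p = 2.9e-12). Dab2, an endocytic adaptor, fell from 1525, 1592 and 1570.1 CPM to 550.1, 549 and 533 CPM (log2 fold change -1.52 ± 0.06 (SE), adjusted p = 6.56e-17). Mndal, an interferon-inducible gene, fell from 768, 634 and 575 CPM to 156, 166 and 171 CPM. Serinc3, Ms4a6c and D17H6S56E-5 fell by 1.25, 2.08 and 1.40 on the log2 scale.

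The library labels held for the deleted gene, since Trap1 had 0 CPM in all 6 TRAP1 KO libraries in control medium. The response of WT cells differed from that of TRAP1 KO cells in the same medium in 964 genes (7.08% of those tested, an interaction of genotype and polarization in the same fit, adjusted p under 0.05). The contrasts share no libraries. In 526 of the 964 the change was more positive and in 438 more negative in TRAP1 KO. The fit of all 27 libraries gave 170 genes. Effectors of alternative activation differed in 14 of 23 genes, 10 with a lower response in TRAP1 KO, and the list's median log2 fold change was 2.79 there against 5.66 in WT. In the fit of all 27 libraries 5 genes differed, 4 of them with a lower response. Arg1 differed most among genes of at least 10 CPM, with 4.89 ± 0.704 CPM in M2 and 0.961 ± 0.982 CPM in Mφ (SD, n = 3) of TRAP1 KO and a difference of log2 fold changes of -5.57 ± 0.80 (SE), adjusted p = 9.26e-05. Mgl2 (-4.76 ± 0.37 (SE), adjusted p = 3.28e-09) and Edn1 (-4.24 ± 0.55 (SE), adjusted p = 5.87e-06) followed, and their M2 levels in TRAP1 KO were 69.7 ± 4.93 CPM and 5.89 ± 1.76 CPM (SD, n = 3). Their Mφ levels were 3.00 ± 1.64 CPM and 1.34 ± 0.351 CPM in TRAP1 KO (SD, n = 3). In WT Mφ they were 0.519 ± 0.227 CPM and 0.573 ± 0.104 CPM. Both differences thus also hold a higher mean in TRAP1 KO Mφ, at low levels. Socs1, which rose in WT, had 1.83 ± 1.18 CPM in M2 and 6.68 ± 0.969 CPM in Mφ (SD, n = 3) of TRAP1 KO (-4.66 ± 0.43 (SE), adjusted p = 3.39e-08). Rnase2a, with 2 counts over WT Mφ, stood at 226 ± 5.54 CPM in TRAP1 KO M2 (SD, n = 3) and also passed the test (adjusted p = 0.00467). It did not pass with all 27 libraries (adjusted p = 0.728). IL-4 signalling differed in 5 of 11 genes, all with a lower response in TRAP1 KO. That count was 3 without M2 replicate 3 and 1 with all 27 libraries.

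Genes of S phase and mitosis differed by genotype in 29 of 34 cases, all with a more positive response in TRAP1 KO, where their median log2 fold change was -0.14 against -1.25 in WT. With total counts as the scaling 30 differed, as with the batch 2 WT Mφ library added to batch 1, but with all 27 libraries in the fit 0 did. Rrm1 was at 77.6 ± 6.07 CPM in Mφ and 74.5 ± 1.36 CPM in M2 (SD, n = 3) of TRAP1 KO (1.17 ± 0.12 (SE), adjusted p = 1.88e-07, and 0.307 with all 27 libraries). Both Rrm1 levels were near that of WT M2 given above, while WT Mφ stood higher. The fall of Cx3cr1 was also smaller in TRAP1 KO (3.12 ± 0.19 (SE), adjusted p = 3.04e-11), and the genotypes differed more in Mφ than in M2. Cx3cr1 was at 45.5 ± 5.32 CPM in TRAP1 KO Mφ and 297 ± 8.45 CPM in WT Mφ (SD, n = 3). In M2 it was at 11.8 ± 1.19 CPM in TRAP1 KO and 8.91 ± 1.17 CPM in WT. Chemokines and their receptors differed in 16 of 26 genes, 11 of them with a lower response, such as Ccl5 (-3.40 ± 0.21 (SE), adjusted p = 3.04e-11). Without M2 replicate 4 there were 7 with a lower response, and with all 27 libraries 4 genes differed, 3 with a lower response. The median log2 fold change of the interferon-stimulated genes was -2.36 in TRAP1 KO, and 9 of 33 differed, 8 of them with a more negative response. The count with a more negative response was 5 with total counts or without Mφ replicate 3, and 1 with all 27 libraries. None of the 20 cholesterol genes differed by this test.

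In WT macrophages the response in MPNST-CM differed from that in control medium in 1653 genes (12.1% of those tested), 712 with a more positive and 941 with a more negative change in MPNST-CM. These contrasts share no libraries either. In the fit of all 27 libraries 192 genes differed, and with total counts the split was 1177 to 479. Interferon-stimulated genes differed in 20 of 33 cases, 19 of them with a more positive response in MPNST-CM (23 with total counts, 0 with all 27 libraries), and their median log2 fold change was -1.28 there against -2.25 in control medium. Rtp4 was at 438 ± 24.3 CPM in Mφ and 235 ± 17.7 CPM in M2 (SD, n = 3) in MPNST-CM (1.84 ± 0.13 (SE), adjusted p = 1.69e-10). Nuclear subunits of the respiratory chain differed in 29 of 45 genes, all with a lower response in MPNST-CM (median -0.13 against 0.37), and in 19 with total counts and 6 with all 27 libraries. Clec10a, which rose modestly in control medium, and Mrc1, which was not called there, gave differences of 2.52 ± 0.18 (SE), adjusted p = 3.89e-10 and 1.11 ± 0.10 (SE), adjusted p = 3.77e-08, with 2843 ± 112 CPM of Mrc1 in M2 and 1281 ± 97.5 CPM in Mφ (SD, n = 3) in MPNST-CM. The fall of Maf was smaller (2.38 ± 0.11 (SE), adjusted p = 2.73e-14). Ctla2b differed by 3.33 ± 0.18 (SE), adjusted p = 1.65e-12, and no fall was called in MPNST-CM. It was at 170 ± 23 CPM in Mφ and 160 ± 11.8 CPM in M2 there (SD, n = 3). Its log2 fold change in MPNST-CM was -0.09 (adjusted p = 0.635). Gja1, a gap junction connexin, fell in control medium (0.451, 0.389 and 0.562 CPM in M2 against 2.45, 3.78 and 2.73 CPM in Mφ) and differed by 3.45 ± 0.44 (SE), adjusted p = 5.2e-06. In MPNST-CM Gja1 rose, from 11.1 ± 3.74 CPM in Mφ to 19.6 ± 2.26 CPM in M2 (SD, n = 3). Its log2 fold change there was 0.82 (adjusted p = 0.00192). The predicted gene Gm30605 differed by 3.56 ± 0.56 (SE), adjusted p = 6.92e-05. Retnla rose in both media, to 318 ± 23.6 CPM in M2 (SD, n = 3) in MPNST-CM (-2.51 ± 0.65 (SE), adjusted p = 0.0126), and Rnase2a to 36.6 ± 2.36 CPM. The differences between media were not called for Rtp4 (adjusted p = 0.459), Mrc1 (0.271), Ctla2b (0.122), Gja1 (0.340), Gm30605 (0.227), Retnla (0.800) and Rnase2a (0.861) once all 27 libraries were fitted. Ftl1-ps1, a pseudogene of the ferritin light chain, had 423, 9.12 and 128 CPM in Mφ and 12.3, 8.55 and 8.42 CPM in M2, so its Mφ libraries differed widely among themselves. Its difference between media (4.53 ± 1.21 (SE), adjusted p = 0.0202) was not called with only the groups compared (adjusted p = 0.127), with the replicate block (0.105), with the batch 2 Mφ library added (0.0923) or with all 27 libraries (0.173). The division of reads between it and Ftl1 was not tested.

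**Figure D5:**
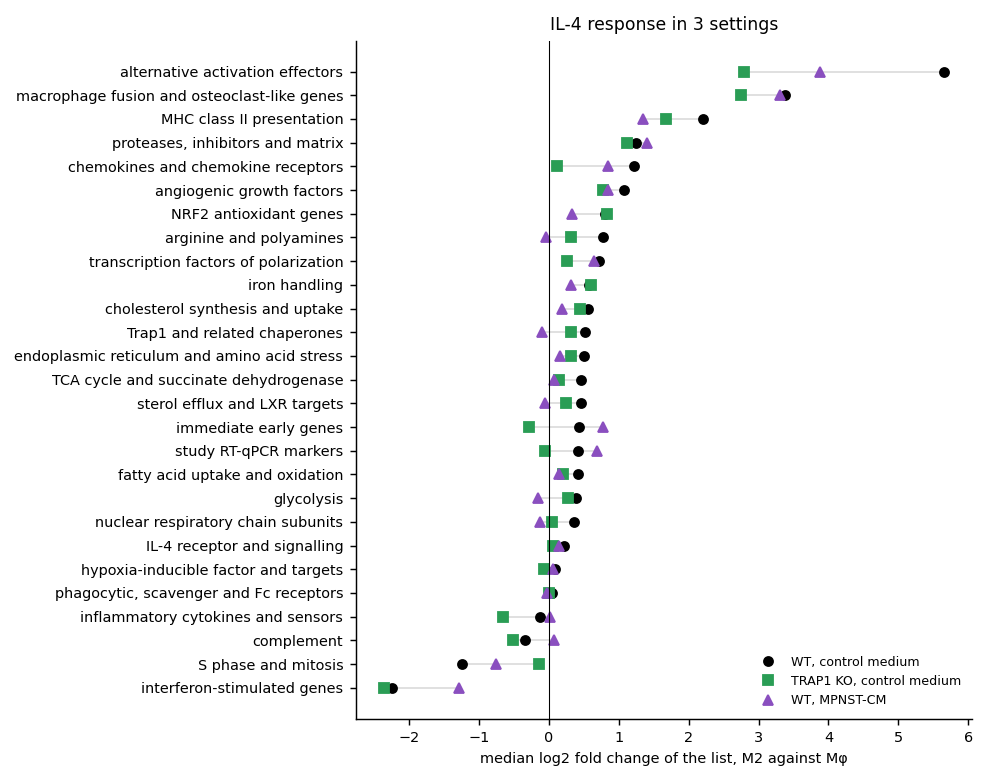
Median log2 fold change of M2 against Mφ (horizontal axis) over the tested genes of each list, in WT cells in control medium (black circles), TRAP1 KO cells in control medium (green squares) and WT cells in MPNST-CM (purple triangles), each from 3 M2 and 3 Mφ libraries. The median of S phase and mitosis lies at -1.25, -0.14 and -0.76, and that of interferon-stimulated genes at -2.25, -2.36 and -1.28.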

How the data were processed

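The authors deposited counts of reads per gene from 3′ QuantSeq libraries. Per the labels and methods, reads were trimmed with Trimmomatic (Phred 20, window of 4 bases), aligned with HISAT2 (mapping quality of at least 20) and counted with featureCounts, with no versions in the sources used here. The labels name the build mm39 and the methods another mouse build, so no coordinates were taken from the counts. Of 32 columns 5 matched no sample and were not used. The 24 libraries of batch 1, in 8 groups, were fitted with edgeR 4.0.16 (R 4.3.3; TMM factors, filterByExpr, robust quasi-likelihood test, Benjamini-Hochberg adjustment at 0.05), on 13614 of 50559 genes. The response was M2 minus Mφ of WT in control medium, and its interactions with genotype and medium used the same fit. CPM are counts scaled to the library total times its TMM factor. The SE of a log2 fold change, or of a difference of such changes, is its absolute value over the square root of the F statistic of its test. Genes were named from lists, and as the 15 largest log2 rises and falls (mean of at least 10 CPM in the higher group, no overlap), the 10 largest rises and falls in CPM and the 5 largest interactions of each kind (mean of at least 10 CPM in a group). The libraries compared and the lists were chosen with earlier results of these data known. Alternatives were DESeq2 1.42.0, 2 other scalings, no filter, other sets of libraries, a fold threshold (glmTreat), a replicate block and leaving out each library. The scripts were tested on simulated data. Some genes of the lists are counted but not reported by name here.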

Additional observations from a re-analysis of the deposited data

Results flagged for a closer look

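The responses to IL-4 that differed between settings are collected here, each by the interaction term of the same edgeR fit. Between TRAP1 KO and WT in control medium, 964 genes differed, and the largest differences of log2 fold changes (TRAP1 KO minus WT) were -5.57 ± 0.80 (SE) for Arg1, -4.76 ± 0.37 for Mgl2, -4.66 ± 0.43 for Socs1, -4.24 ± 0.55 for Edn1 and -3.40 ± 0.63 for Rnase2a. Between MPNST-CM and control medium in WT cells, 1653 genes differed, and the largest differences (MPNST-CM minus control medium) were 4.53 ± 1.21 for Ftl1-ps1, -4.38 ± 0.95 for Rnase2a, 3.56 ± 0.56 for Gm30605, 3.45 ± 0.44 for Gja1 and 3.33 ± 0.18 for Ctla2b. The values of Rnase2a rest on 2 counts over the 3 WT Mφ libraries, and those of Ftl1-ps1 on Mφ libraries at 423, 9.12 and 128 CPM. The WT Mφ libraries also held few counts of Arg1 (2, 2 and 5), Mgl2 (5, 2 and 6) and Edn1 (5, 5 and 4). With all 27 libraries in the fit the difference between genotypes was not called for Rnase2a (adjusted p = 0.728), nor that between media for Ftl1-ps1 (0.173), Rnase2a (0.861), Gm30605 (0.227), Gja1 (0.340) and Ctla2b (0.122). Groups of 3 libraries were not given the outlier test used for groups of 4 to 10.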

How the results depend on the processing

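The count of 5065 called genes stayed between 3692 (all 27 libraries) and 6430 (total counts) except with glmTreat at a log2 fold change of at least 1, which called 890 (469 higher, 421 lower). With total counts 1497 were higher and 4933 lower. Leaving out 1 of the 6 libraries gave 4372 to 4625 (2234 to 2411 higher, 2122 to 2214 lower). DESeq2's Wald test called 4970, with 4 genes of no adjusted p. The TRAP1 KO difference, 964 genes, became 45 with glmTreat (12 more positive, 33 more negative) and 170 with all 27 libraries (90 and 80), and 743 to 838 with 1 library left out (447 to 491 and 287 to 368). The MPNST-CM difference, 1653 genes, became 47 with glmTreat (35 and 12), 192 with all 27 libraries (88 and 104), and 1242 to 1466 with 1 library left out (563 to 655 and 652 to 811). Its split moved to 1177 and 479 with total counts, and its more negative genes to 626 without the filter and to 554 with only the groups compared. The causes were not tested.

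Replicate numbers were read as a possible pairing. WT M2 and Mφ share numbers 2 and 3 only, whose deviations correlated at 0.00923 and 0.0116. Over all groups of batch 1 the mean was 0.107 for equal numbers (77 pairs, -0.214 to 0.521). For other numbers it was -0.0451 (175 pairs, -0.379 to 0.297). Whether equal numbers mark a pairing cannot be decided from these values, since WT M2 and Mφ give 2 such pairs. With the replicate block 4717 genes were called (2478 higher, 2239 lower), of which 4401 were among the 5065.

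Among genes given by value, 41 alternatives changed a sign, in 13 cases with total counts. Of these genes S100a8 and S100a9 were called before the change, and Mrc1, Jak1 and Csf1r after it, as lower with total counts (adjusted p = 0.0104, 0.0162 and 0.0495). With total counts Axl, E2f1 and Tyk2 also became called lower, and Ccl5, Cpt1a, Il1rn, Mmp8, S100a8, Sdhb, Sdhc and Trap1 lost their call (adjusted p = 0.0567 to 0.474). Ftl1 was called higher with only the groups compared (adjusted p = 0.0251), and Ftl1-ps1 was not called there (0.100). Ccl5 was not called without M2 replicate 3 (0.0592). With glmTreat 74 of the genes given by value were not called, and no gene was called in the lists of cholesterol, of the TCA cycle, of the respiratory chain and of Trap1 and related chaperones. With total counts the log2 fold changes were -0.112 for Acadl, -0.195 for Acadvl, -0.0256 for Acod1, -0.269 for Cdkn1a, -0.208 for Csf1r, -0.269 for Egr1, -0.0457 for Ftl1, -0.0675 for Gbp2, -0.192 for Hif1a, -0.214 for Jak1, -0.235 for Mrc1, -0.0647 for Pcna and -0.0649 for Spp1. With all 27 libraries, and with the batch 2 Mφ library added, they were -0.0795 and -0.0867 for Egr1, -0.0144 and -0.0197 for Hif1a, -0.0264 and -0.0467 for S100a8, -0.581 and -0.602 for S100a9, -0.0458 and -0.0512 for Spp1, and 0.0553 and 0.0547 for Stat6. Stat6 also turned to 0.0068 with DESeq2 and with its size factors, 0.00125 without the filter, 0.109 with the block and -0.0948 to 0.0893 with 1 library left out. With only the groups compared, Cdkn1a was -0.00532 and Egr1 -0.00305. With 1 library left out, Cdkn1a ranged from -0.134 to 0.282, Egr1 from -0.18 to 0.0987 and Csf1r from -0.00252 to 0.0969.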

Other observations

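Genes outside the lists, among them receptors of the cell surface, also moved, and were chosen after their values were seen. Il1rl1, which encodes the IL-33 receptor ST2, was at 6.87, 6.51 and 10.7 CPM in the Mφ libraries and 125, 119 and 119 CPM in the M2 libraries (log2 fold change 3.90 ± 0.18 (SE), adjusted p = 1.79e-15). Csf2rb, the common β chain of the receptors for GM-CSF, IL-3 and IL-5, rose from 335, 327 and 341 CPM to 1523, 1614 and 1466 CPM (log2 fold change 2.20 ± 0.08 (SE), adjusted p = 1.35e-17). Lrrc32, which encodes GARP, a carrier of latent TGF-β, rose from 2.21, 4.17 and 2.62 CPM to 119.6, 118 and 112 CPM (log2 fold change 5.28 ± 0.15 (SE), adjusted p = 7.44e-20). Fgfr1 rose from 7.73, 10 and 6.84 CPM to 76.5, 82.8 and 79.7 CPM (log2 fold change 3.28 ± 0.13 (SE), adjusted p = 9.48e-17). The groups lay apart in these 4 genes. Among falls, the sphingosine 1-phosphate receptor S1pr1 was at 22.1, 21.6 and 21.2 CPM in M2 against 77.5, 89 and 76.2 CPM in Mφ (log2 fold change -1.90 ± 0.19 (SE), adjusted p = 6.61e-08), Igfbp4, which binds insulin-like growth factors, at 54.7, 56.2 and 53.5 CPM in M2 against 418, 418 and 418 CPM in Mφ (log2 fold change -2.93 ± 0.09 (SE), adjusted p = 6.16e-19), and Ms4a6b at 23.4, 25.5 and 25.3 CPM in M2 against 229, 217 and 232 CPM in Mφ (log2 fold change -3.19 ± 0.09 (SE), adjusted p = 2.27e-20). The batch 2 Mφ library held 8.96 CPM of Il1rl1, 224 CPM of Csf2rb, 389 CPM of Igfbp4 and 134 CPM of Ms4a6b, each on the Mφ side of the M2 libraries.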
